A study of Caenorhabditis elegans with 4 samples.

Results

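The nuclear hormone receptor (*nhr*) family was examined in dissected adult gonads of *C. elegans*, wild type against the H3.3K27M mutant. Members were all genes whose deposited name starts with nhr-, which gave 177 of the 15286 genes listed. This rule uses only the name, but it was set with earlier results of these data known. All 177 had at least 1 count and entered the test. Both groups were grown at 25 °C, and each had 2 biological replicates. The wild type was strain N2, and the mutant was strain FAS58 with the genotype *his-72*(uge40[K27M]) III. In this strain the endogenous *his-72* gene, which encodes the histone variant H3.3, carries methionine in place of lysine at residue 27 (K27M), so the change is present in every cell of the animal. The strain and genotype fields give FAS58, whereas the titles of the mutant samples carry the strain number FAS43. Counts per gene do not show the base change, and the allele could not be checked from them.

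Nuclear hormone receptors are transcription factors with a zinc finger domain that binds DNA and a domain that can bind a small lipophilic ligand. Worms have many more of them than flies or mammals, mostly through duplication of a gene related to the mammalian receptor HNF4, and for most of these duplicates no ligand is known. A smaller set has clear counterparts in other animals and acts in moulting, sterol and fat metabolism, detoxification and gonad development. H3.3K27M interferes with the enzyme PRC2, which methylates lysine 27 of histone H3, a mark of repressed genes.

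Of the 177 members, 176 were found in the Ensembl release 115 annotation of WBcel235, the build used for the files, and *nhr-284* was not. The annotation holds 5 members as pseudogenes, namely *nhr-83*, *nhr-144*, *nhr-151*, *nhr-194* and *nhr-250*. It names 1 other member, *nhr-33*, as *hizr-1*, a zinc sensor. The annotation holds 269 genes with an nhr- name, of which 170 are among the members. The others were not among the genes listed, under this or another name. Levels, chromosome counts and runs given here therefore cover only the listed part of the family. Chromosome V held 104 members, chromosome IV 29, chromosome X 18, chromosome I 11, chromosome II 8 and chromosome III 6.

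Total counts on genes were between 28298609 and 32957429 per library, and 3 counts, taken as the detection floor, equalled 0.0919 to 0.105 CPM (counts scaled to a common library size). Genes with a count numbered 14726 and 14631 in the wild-type libraries, 13116 in mutant replicate 1 and 14553 in mutant replicate 2. Counts of the replicates were not one library deposited again, since chi-square divided by its degrees of freedom came to 88.8 for the wild-type pair and 78.3 for the mutant pair, far above the value of sampling noise. Summed germline markers were at 20230 and 16260 CPM in wild type, and at 15140 and 12220 CPM with the mutation, and 0 of the 13 passed the test in edgeR (1 higher and 1 lower at an unadjusted p under 0.05, 0 in DESeq2). The yolk receptor gene *rme-2* made up most of the difference in this sum (10560 CPM in wild type, 6388 CPM in the mutant), and 6 of the 13 markers had a log2 fold change over 0 (median -0.04). Summed markers of the somatic gonad were at 1063 and 1041 CPM in wild type against 1257 and 1260 CPM in the mutant, mostly *fln-1* (812.6 CPM in wild type, 1026 CPM in the mutant). Of these 9 markers 4 had a log2 fold change over 0 (median -0.15), and 0 passed in edgeR (1 lower at an unadjusted p under 0.05, 0 in DESeq2). Of 14 intestine markers, 6 fell in edgeR, all of them vitellogenin genes, where 1.46% of all genes fell. The list summed to 381 and 3461 CPM in wild type against 15.9 and 23.6 CPM in the mutant. At an unadjusted p under 0.05, 9 were lower and 1 higher, and DESeq2 gave 9 lower and 0 higher. Among those not past the edgeR test, *asp-1* had 18 and 200 counts in wild type against 1 and 2 in the mutant. *cpr-1* had 30 and 394 against 1 and 16, and *pept-1* 17 and 25 against 0 and 0. Only 2 of the 14, *elt-2* and *ges-1*, had a log2 fold change over 0 (list median -6.20). The defining intestine factor *elt-2* was near the floor, with 2 and 1 counts in wild type against 3 and 6 in the mutant. The gut esterase gene *ges-1* lay in the other direction without passing, with 5 and 19 counts in wild type against 114 and 43 in the mutant (log2 fold change 2.54, adjusted p = 0.153). Of 11 neuron markers, 2 rose (*unc-13* and *unc-104*), where 4.43% of all genes rose, and 0 fell in edgeR. At an unadjusted p under 0.05, 5 were higher and 0 lower, and DESeq2 gave 4 higher and 0 lower. The list summed to 71.3 and 69.8 CPM in wild type against 128.6 and 116.7 CPM in the mutant. A log2 fold change over 0 was seen in 8 of the 11 (median 1.11). *snb-1* (45.7 CPM in wild type, 35.7 CPM in the mutant) and *ric-4* (3.32 and 1.94 CPM) were lower in both mutant libraries. Markers of hypodermis (120.7 to 145.5 CPM) and body wall muscle (705.1 to 1321 CPM) overlapped between the strains in their sums. The hypodermis sum was mostly *lin-26* (118.9 CPM in wild type, 125.0 CPM in the mutant). The muscle sum was mostly *act-4* (670.8 and 668.3 CPM). A log2 fold change over 0 was seen in 3 of 7 hypodermis markers (median -0.31) and 5 of 8 muscle markers (median 0.11). In both lists 0 passed in edgeR or DESeq2, with 1 muscle marker lower at an unadjusted p under 0.05. Sperm markers summed to 164.9 and 151.6 CPM in wild type against 212.4 and 212.5 CPM in the mutant, and 0 of 9 passed in edgeR (3 higher and 1 lower at an unadjusted p under 0.05, 3 higher in DESeq2). The higher sum came mostly from *spe-41* (14.3 CPM in wild type, 89.8 CPM in the mutant), whereas *spe-44* was lower (58.4 and 31.1 CPM). Of the 9 sperm markers, 5 had a log2 fold change over 0 (median 0.77).

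Mutant replicate 1 stood apart among the weakly counted members. It had 39 members without a count (22.0%), against 4 in each wild-type library (2.26%) and 8 in mutant replicate 2 (4.52%). The same library lacked a count for 14.1% of all tested genes, and the other libraries for 3.51% to 4.64%. There were 31 members with 0 counts in mutant replicate 1 and a count in each of the other 3 libraries. Of all 15261 tested genes, 1372 had this pattern. There were 5 members with 0 counts in both mutant libraries, and their wild-type counts were at most 10. Among 114 members with 20 or more counts in at least 1 mutant library, 18 were more than 4 times as high in mutant replicate 2 as in replicate 1, and 1 was the reverse. Among 108 such members in wild type, 2 differed this much between replicates. These differences between replicates were not counted over all genes.

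**Figure D1:**
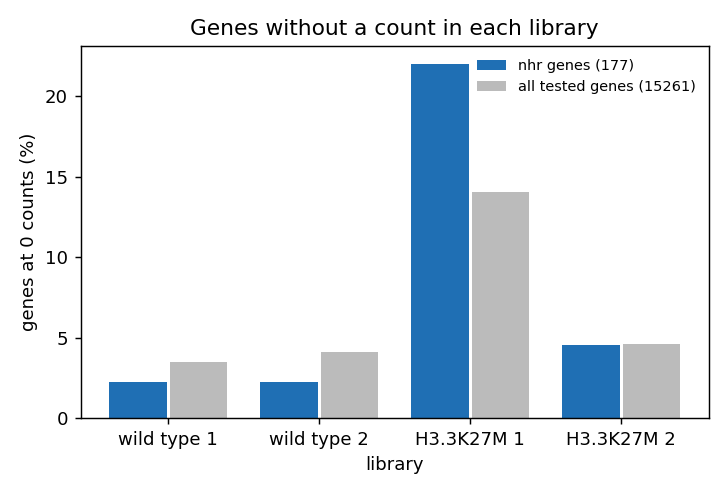
Percent of genes with 0 counts in each of the 4 libraries, for the 177 *nhr* genes (blue) and all 15261 tested genes (grey). Mutant replicate 1 had 22.0% of the *nhr* genes at 0 counts, and the other 3 libraries had 2.26% to 4.52%.

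Most of the family was weakly represented in the gonad. In wild type, 22 members had a mean of at least 10 CPM, 61 had 1 to 10 CPM and 94 had less than 1 CPM. The mutant had 20, 60 and 97 members in the same classes. The median member stood at 0.810 CPM in wild type against 0.816 CPM in the mutant, below the medians of all tested genes (1.95 and 2.64 CPM). There were 15 members with fewer than 10 counts in every library. The family summed to 1042 and 917.8 CPM in wild type against 1317 and 1620 CPM in the mutant, and the 5 highest members made up 45.7% of the mean sum in wild type and 58.3% in the mutant. In bulk RNA, fewer cells that express a gene and less of its RNA per cell cannot be told apart.

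The members with the highest CPM in wild type included known regulators of fat metabolism and of moulting. *nhr-66*, which encodes a binding partner of NHR-49, had 6145 and 3534 counts in wild type against 7456 and 10500 in the mutant. *nhr-49*, the regulator of fatty acid desaturation and β-oxidation, had 3124 and 3175 counts in wild type against 4588 and 4893 in the mutant. Both mutant libraries were above both wild-type libraries for these 2 genes, but neither passed the test. The log2 fold change was 0.75 (SE 0.31, adjusted p = 0.204) for *nhr-66* and 0.44 (SE 0.17, adjusted p = 0.176) for *nhr-49*. *nhr-23*, the counterpart of the ROR receptors and required for moulting, had 1672 and 1547 counts in wild type against 2189 and 1771 in the mutant, at a log2 fold change of 0.15 (SE 0.18, adjusted p = 0.646). *nhr-78* had 1113 and 785 counts in wild type against 1328 and 1076 in the mutant. *nhr-86*, which has been linked to nutrient and pathogen sensing, had 550 and 824 counts in wild type against 865 and 605 in the mutant. The ranges of the strains overlapped for *nhr-23*, *nhr-78* and *nhr-86*. The other genes of the 8 highest were *nhr-46*, *nhr-47* and *nhr-71*, which are described below. Per kilobase of annotated exon, the level in wild type was highest for *nhr-49* (50.9 CPM per kb), followed by *nhr-66* (34.5), *nhr-46* (26.0), *nhr-47* (25.9), *nhr-78* (23.0) and *nhr-23* (22.0 CPM per kb). In the mutant, *nhr-47* was first at 121.5 CPM per kb, ahead of *nhr-49* (69.1) and *nhr-66* (57.9 CPM per kb).

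**Figure D2:**
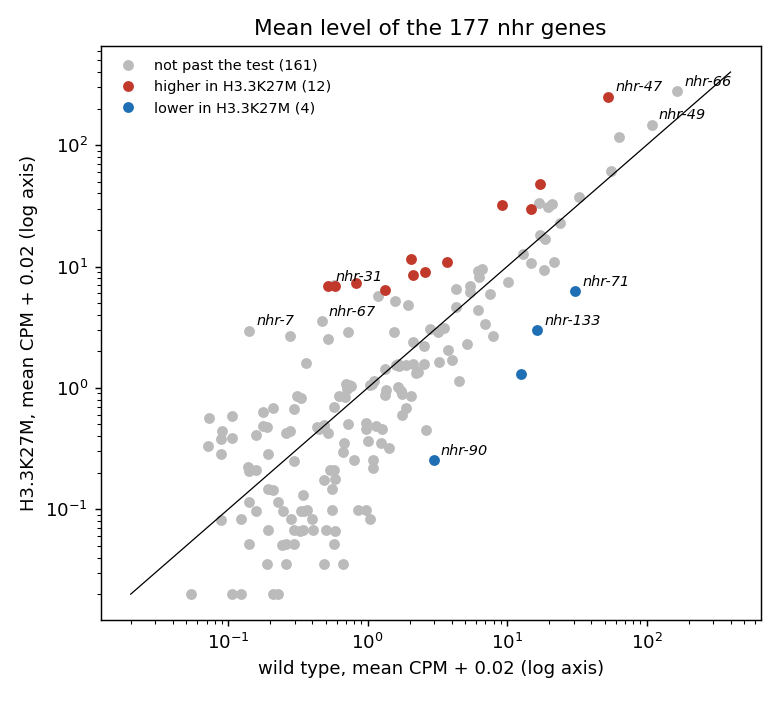
Mean level of each of the 177 *nhr* genes in wild type (x axis) and in the H3.3K27M mutant (y axis), in TMM-normalized CPM plus 0.02 on log axes, with n = 2 libraries per strain and the line of equal levels. The 12 genes that rose (red) reached at least 6.42 CPM in the mutant, and the 4 that fell (blue) started from at least 2.95 CPM in wild type.

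The comparison between the strains asks which receptors change their RNA level in gonads that carry the mutant histone. A gene passed the test at an adjusted p under 0.05 in edgeR's quasi-likelihood test, with adjustment over all 15261 genes, and a fold change over 2. By this rule 12 members rose (6.78% of 177), where 4.43% of all tested genes rose, and 4 members fell (2.26%), where 1.46% of all tested genes fell. In either direction, 9.04% of the members and 5.89% of all genes passed. Both shares lie near those of the whole table, and nothing is read from them about the family. At an unadjusted p under 0.05, 25 members were higher and 20 lower. The share of all genes at this unadjusted threshold was not counted, here or with libraries left out. Nothing is therefore read from these counts about the family. The mutant libraries both lay above the wild-type libraries in 40 members (22.6%, against 24.1% of all genes) and both below in 64 members (36.2%, against 32.7%). With any 1 of the 4 libraries left out, 0 members passed in either direction in edgeR, and the smallest adjusted p among the 16 was 0.0563. At an unadjusted p under 0.05, 16 to 31 members were then higher and 7 to 32 lower. Under each of these omissions, 15 of the 16 members still differed more than 2-fold as before, the exception being *nhr-48*.

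The 12 members that rose spanned levels in wild type from 0.499 to 53.3 CPM, and 9 of them lie on chromosomes I to IV, which hold 54 members. Of all genes, 3.91% to 6.66% rose on each of these chromosomes, against 1.91% on chromosome V and 2.53% on chromosome X. *nhr-31*, which acts in the excretory cell, where it controls genes of the vacuolar proton pump, showed the largest increase. It lies on chromosome IV from 8022655 to 8029513, and had 18 and 11 counts in wild type against 178 and 265 in the mutant. It averaged 0.499 ± 0.163 CPM (SD, n = 2) in wild type against 6.90 ± 2.05 CPM in the mutant, for a log2 fold change of 3.77 (SE 0.55, edgeR adjusted p = 0.0164). *nhr-121*, on chromosome III from 2449338 to 2454807, had 20 and 13 counts in wild type against 153 and 288 in the mutant. It averaged 0.568 ± 0.162 CPM in wild type against 6.88 ± 3.1 CPM in the mutant, for a log2 fold change of 3.58 (SE 0.62, adjusted p = 0.0263). Both genes lay below 1 CPM in each wild-type library and above it in each mutant library.

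A pair of receptors with roles in nutrition and growth control rose from chromosome I. *nhr-62*, which is required for the long life of worms under dietary restriction, lies from 9839598 to 9844809 and had 24 and 23 counts in wild type against 191 and 276 in the mutant. It averaged 0.810 ± 0.0124 CPM in wild type against 7.27 ± 2.01 CPM in the mutant, for a log2 fold change of 3.16 (SE 0.48, adjusted p = 0.0190). *nhr-69*, related to HNF4 and known to act with the SMAD protein DAF-8 in sensory neurons, lies from 9879183 to 9881504 and had 58 and 60 counts in wild type against 318 and 420 in the mutant. It averaged 2.04 ± 0.0790 CPM in wild type against 11.5 ± 2.47 CPM in the mutant, for a log2 fold change of 2.49 (SE 0.35, adjusted p = 0.0145). The strains were well separated for both genes, and the replicates of the mutant were further apart than those of wild type. *nhr-49* lies between them, from 9869651 to 9874680. *inx-20*, which overlaps *nhr-69* on the opposite strand, had 12 and 23 counts in wild type against 19 and 67 in the mutant and did not pass the test (adjusted p = 0.457). The summed neuron markers were higher in both mutant libraries, with 8 of the 11 above 0, and their part in the value of *nhr-69* was not tested.

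*nhr-10* acts with *nhr-68* to switch on the propionate shunt, which breaks down the short fatty acid propionate. It lies on chromosome III from 7112295 to 7115438 and had 216 and 314 counts in wild type against 950 and 1101 in the mutant. It averaged 9.16 ± 2.53 CPM in wild type against 31.9 ± 3.94 CPM in the mutant, for a log2 fold change of 1.80 (SE 0.26, adjusted p = 0.0167). *acdh-1*, an acyl-CoA dehydrogenase of the shunt and a known target of this receptor, fell from 174 and 660 counts to 20 and 16, a log2 fold change of -4.68 (SE 0.88, adjusted p = 0.0350). The other shunt genes tested, *ech-6* (log2 fold change -0.17, adjusted p = 0.585) and *alh-8* (log2 fold change -0.09, adjusted p = 0.815), did not pass, so 1 of 3 fell, where 1.46% of all genes fell. The partner *nhr-68*, chosen after its values were seen, had 14 and 16 counts in wild type against 0 and 12 in the mutant. It did not pass (log2 fold change -1.45, SE 1.21, adjusted p = 0.479). The wild-type counts of *acdh-1* differed between replicates in the same order as the vitellogenin genes, whose part in the result was not tested.

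*nhr-6* is the worm counterpart of the NR4A receptors and is needed for the spermatheca and for ovulation. It lies on chromosome III from 3573581 to 3578771 and had 36 and 40 counts in wild type against 161 and 251 in the mutant. It averaged 1.31 ± 0.117 CPM in wild type against 6.42 ± 2.10 CPM in the mutant, for a log2 fold change of 2.29 (SE 0.46, adjusted p = 0.0440). With genes of low counts removed (filterByExpr), its adjusted p was 0.0533, so the call was lost. *nhr-48*, a relative of the steroid receptor DAF-12 and of NHR-8, lies on chromosome X from 15708213 to 15716875 and had 463 and 401 counts in wild type against 890 and 1040 in the mutant. It averaged 14.9 ± 1.29 CPM in wild type against 30.0 ± 3.88 CPM in the mutant, for a log2 fold change of 1.01 (SE 0.21, adjusted p = 0.0485), just inside both thresholds. With RLE normalization the adjusted p of *nhr-48* was 0.0508, and its log2 fold change fell to 0.87 without mutant replicate 2. It was the only member on chromosome X to rise.

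*nhr-47* had the largest gain in CPM of the 12. It lies on chromosome V from 5505253 to 5509956 and had 1763 and 1333 counts in wild type against 7182 and 8921 in the mutant. It averaged 53.3 ± 9.70 CPM in wild type against 250.4 ± 43.1 CPM in the mutant, for a log2 fold change of 2.23 (SE 0.23, adjusted p = 0.00562). Per kilobase, *nhr-47* stood at 25.9 CPM in wild type, behind *nhr-49*, *nhr-66* and *nhr-46*, and was the highest member in the mutant. By CPM without regard to length it stayed below *nhr-66* in the mutant (250.4 against 279.5 CPM). *hpo-15*, which overlaps it on the opposite strand, had 1845 and 1100 counts in wild type against 1354 and 1611 in the mutant, with overlapping ranges (log2 fold change -0.14, adjusted p = 0.781).

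Of the other 4 members that rose, *nhr-207*, on chromosome V from 12096146 to 12097931, had 70 and 52 counts in wild type against 262 and 285 in the mutant (log2 fold change 2.01, SE 0.35, adjusted p = 0.0267). *nhr-19*, on chromosome II from 9598180 to 9605526, had 74 and 75 counts in wild type against 247 and 336 in the mutant (log2 fold change 1.82, SE 0.35, adjusted p = 0.0387). Both mutant libraries lay above both wild-type libraries for these genes. *mrpl-53*, a mitochondrial ribosomal protein gene on the opposite strand of *nhr-19*, had 434 and 511 counts in wild type against 282 and 219 in the mutant (log2 fold change -1.07, adjusted p = 0.0691), so the overlapping genes did not move in the same direction. *nhr-105*, on chromosome IV from 7050156 to 7053450, had 102 and 113 counts in wild type against 310 and 385 in the mutant (log2 fold change 1.54, SE 0.31, adjusted p = 0.0417). *nhr-22*, on chromosome II from 6446195 to 6449792, had 499 and 490 counts in wild type against 1155 and 1915 in the mutant (log2 fold change 1.49, SE 0.29, adjusted p = 0.0404). Its wild-type replicates were nearly equal, whereas its mutant replicates differed more, at 47.8 ± 17.6 CPM against 17.1 ± 0.0338 CPM in wild type.

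**Figure D3:**
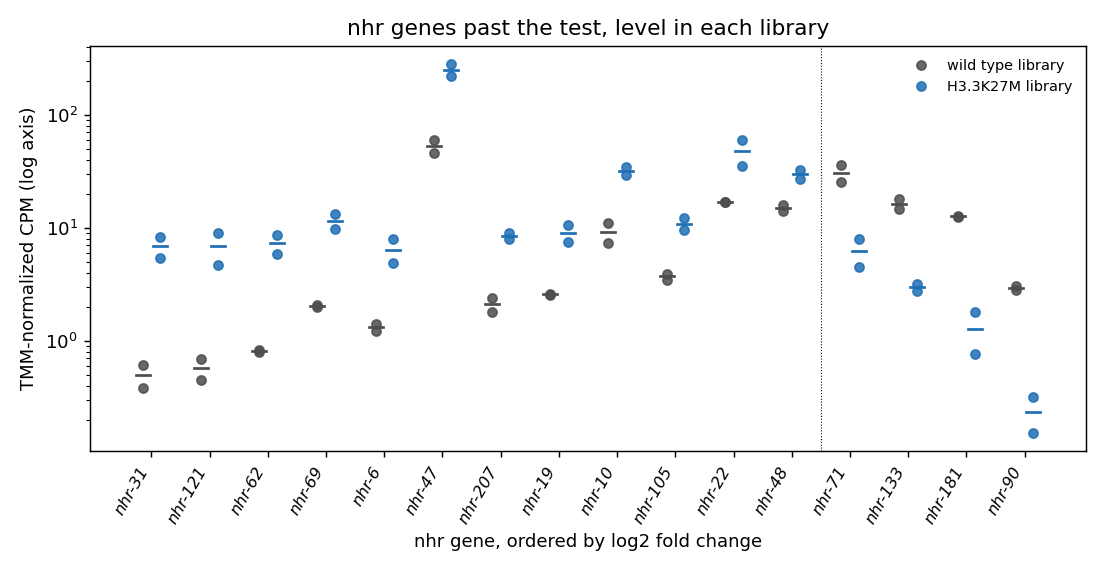
TMM-normalized CPM on a log axis in each library for the 16 *nhr* genes past the test, ordered by log2 fold change, with 2 wild-type (grey) and 2 H3.3K27M (blue) points per gene and a bar at each mean. The 12 genes left of the dotted line rose by 1.01 to 3.77 on the log2 scale, and the 4 to its right changed by -2.30 to -3.64.

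The 4 members that fell lie on chromosomes V and X, which hold 104 and 18 members. Of all genes there, 1.32% fell on chromosome V and 6.87% on chromosome X, against at most 0.775% on each other chromosome. *nhr-90*, on chromosome V from 610512 to 612513, had 90 and 81 counts in wild type against 5 and 10 in the mutant. It averaged 2.95 ± 0.176 CPM in wild type against 0.234 ± 0.114 CPM in the mutant, for a log2 fold change of -3.64 (SE 0.68, adjusted p = 0.0309). It was the only one of the 4 to end below 1 CPM in both mutant libraries. *nhr-181*, on chromosome V from 4095040 to 4100541, had 364 and 367 counts in wild type against 59 and 24 in the mutant. It averaged 12.6 ± 0.260 CPM in wild type against 1.28 ± 0.743 CPM in the mutant, for a log2 fold change of -3.29 (SE 0.41, adjusted p = 0.0106). Here mutant replicate 2 was the lower of the pair, unlike the weakly counted members at 0 in mutant replicate 1.

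*nhr-133*, on chromosome V from 2210510 to 2212118, had 525 and 424 counts in wild type against 104 and 88 in the mutant. It averaged 16.4 ± 2.22 CPM in wild type against 2.98 ± 0.293 CPM in the mutant, for a log2 fold change of -2.45 (SE 0.28, adjusted p = 0.00833). It had the smallest adjusted p of the 4. *nhr-71*, on chromosome X from 13747315 to 13751797, had 750 and 1031 counts in wild type against 148 and 254 in the mutant. It averaged 30.8 ± 7.31 CPM in wild type against 6.27 ± 2.45 CPM in the mutant, for a log2 fold change of -2.30 (SE 0.34, adjusted p = 0.0167). *nhr-71* was among the 8 highest members in wild type and was no longer so in the mutant.

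Some members lay close to the thresholds. *nhr-46* had 2003 and 1687 counts in wild type against 3834 and 3683 in the mutant, or 63.6 ± 6.76 and 116.7 ± 1.02 CPM. Its adjusted p was 0.0422, but its log2 fold change of 0.88 (SE 0.17) fell short of a fold of 2. *nhr-20*, chosen after its values were seen, was alike, with 514 and 462 counts in wild type against 1106 and 1039 in the mutant (log2 fold change 0.98, SE 0.19, adjusted p = 0.0393). With the adjusted p alone as the rule, 14 members were thus higher (7.91%, against 4.48% of all genes), and 4 were lower (2.26%, against 1.48%). *nhr-40*, which is needed for muscle and embryo development, had 137 and 125 counts in wild type against 39 and 33 in the mutant, and missed the test at an adjusted p of 0.0540 (log2 fold change -2.01, SE 0.44). *nhr-206*, also chosen after its values were seen, had 40 and 28 counts in wild type against 142 and 227 in the mutant, and missed it at 0.0529 (log2 fold change 2.29, SE 0.50).

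The members with large estimates that did not pass had few counts in one strain. *nhr-7* had 0 and 7 counts in wild type against 57 and 132 in the mutant (adjusted p = 0.0563). *nhr-142* had 18 and 14 counts in wild type against 111 and 338 in the mutant (log2 fold change 3.66, SE 0.82, adjusted p = 0.0573). *nhr-277* had 12 and 3 counts in wild type against 69 and 103 in the mutant (log2 fold change 3.35, SE 0.78, adjusted p = 0.0604). All 3 were higher in each mutant library than in each wild-type library, and all 3 passed in DESeq2. *nhr-164* had 17 and 42 counts in wild type against 0 and 4 in the mutant (log2 fold change -3.95, SE 1.30, adjusted p = 0.127). *nhr-161* had 87 and 64 counts in wild type against 22 and 6 in the mutant (log2 fold change -2.57, SE 0.70, adjusted p = 0.0982). *nhr-158* had 44 and 18 counts in wild type against 9 and 4 in the mutant (log2 fold change -2.38, SE 0.93, adjusted p = 0.181). These 3 were lower in each mutant library, and of them *nhr-161* passed in DESeq2.

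Members with known roles were grouped by role, with overlaps between the groups. The counts stand beside 4.43% of all tested genes that rose and 1.46% that fell, and with 4 to 11 members a group nothing is read from them about a role. In lipid and nutrient metabolism, 3 of 11 members rose (*nhr-62*, *nhr-69* and *nhr-10*) and 0 fell in edgeR (0 at an unadjusted p under 0.05 and 0 in DESeq2). The median log2 fold change of these 11 was 0.75, where the median over all tested genes was -0.11 and over all members -0.30. It was 0.47 without wild-type replicate 2 and 1.17 without wild-type replicate 1. *nhr-64*, another regulator of fat metabolism, had 234 and 146 counts in wild type against 350 and 267 in the mutant (adjusted p = 0.343). *nhr-76*, which controls fat storage, had 49 and 63 counts in wild type against 110 and 200 in the mutant (log2 fold change 1.32, SE 0.49, adjusted p = 0.171). *nhr-13*, a partner of NHR-49, had 209 and 376 counts in wild type against 242 and 241 in the mutant (adjusted p = 0.474). Both mutant libraries were above wild type for *nhr-64* and *nhr-76*, and the ranges of *nhr-13* overlapped. *nhr-80* was not analysed here.

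Among 10 members with clear counterparts in other animals, 2 rose (*nhr-6* and *nhr-48*, where 4.43% of all genes rose) and 0 fell in edgeR (0 at an unadjusted p under 0.05 and 0 in DESeq2), and 8 had a log2 fold change over 0. *nhr-8*, a receptor of sterol and xenobiotic responses, had 25 and 65 counts in wild type against 67 and 262 in the mutant (log2 fold change 1.72, SE 0.81, adjusted p = 0.245). *nhr-67*, the counterpart of tailless, which acts in the anchor cell of the developing gonad, had 17 and 9 counts in wild type against 13 and 211 in the mutant. The log2 fold change of 2.95 (SE 1.38, adjusted p = 0.244) rested on mutant replicate 2 and was -0.17 without that library. *nhr-25*, the counterpart of FTZ-F1, which acts in moulting and gonad development, had 19 and 43 counts in wild type against 2 and 13 in the mutant (log2 fold change -2.18, SE 1.01, adjusted p = 0.236). *nhr-239* had 26 and 17 counts in wild type against 36 and 29 in the mutant. Of the 5 members of moulting and larval timing, 0 passed in edgeR or DESeq2 and 0 had an unadjusted p under 0.05.

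Of 6 members with roles in gonad, germline or embryo, *nhr-6* rose and 0 fell in edgeR (0 at an unadjusted p under 0.05 and 0 in DESeq2), and the median log2 fold change was -0.50, or -0.26 without mutant replicate 1. *nhr-114*, which protects the germline under some diets, had 57 and 52 counts in wild type against 32 and 11 in the mutant (log2 fold change -1.49, SE 0.67, adjusted p = 0.232). *nhr-2*, a gene of the early embryo, had 398 and 463 counts in wild type against 326 and 355 in the mutant (log2 fold change -0.49, SE 0.24, adjusted p = 0.254). Both genes were lower in each mutant library without passing the test. *nhr-1* had 167 and 193 counts in wild type against 111 and 169 in the mutant (adjusted p = 0.409). Of 7 members of stress, detoxification and pathogen responses, 0 passed in edgeR or DESeq2 and 0 had an unadjusted p under 0.05, with a median log2 fold change of -0.73, or -0.30 without wild-type replicate 1. *nhr-57*, which is induced in hypoxia through HIF-1, had 93 and 35 counts in wild type against 50 and 35 in the mutant (adjusted p = 0.506). *nhr-28* had 63 and 67 counts in wild type against 51 and 36 in the mutant (adjusted p = 0.408). *nhr-45* had 35 and 24 counts in wild type against 34 and 33 in the mutant. Of 4 members listed for other tissues, *nhr-31* rose, 0 fell in edgeR, 1 was lower at an unadjusted p under 0.05, and that 1, *nhr-40*, passed in DESeq2. *nhr-35*, of the same group, had 109 and 94 counts in wild type against 133 and 68 in the mutant.

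Genes that work with the receptors were examined by the same test. Of 8 genes for coregulators and ligand synthesis, 2 rose and 0 fell in edgeR, where 4.43% and 1.46% of all genes did (1 lower at an unadjusted p under 0.05, 0 in DESeq2). *din-1*, the corepressor of DAF-12, had 3092 and 2474 counts in wild type against 7670 and 10289 in the mutant (log2 fold change 1.54, SE 0.23, adjusted p = 0.0174). *ncr-2*, which encodes a protein of sterol transport related to NPC1, had 61 and 110 counts in wild type against 406 and 843 in the mutant (log2 fold change 2.72, SE 0.49, adjusted p = 0.0315). By contrast, *mdt-15*, a Mediator subunit and coactivator of NHR-49, had 3113 and 3009 counts in wild type against 4334 and 4041 in the mutant and did not pass (log2 fold change 0.30, adjusted p = 0.30). Of 4 nuclear receptors without an nhr- name (*daf-12*, *fax-1*, *sex-1* and *unc-55*), 0 passed in edgeR or DESeq2, with 1 higher and 1 lower at an unadjusted p under 0.05. *daf-12* had 64 and 29 counts in wild type against 43 and 20 in the mutant. Of 7 fat metabolism targets, 0 passed in edgeR or DESeq2 and 0 had an unadjusted p under 0.05. Of 10 moulting genes, 0 passed in edgeR, whereas 2 were higher at an unadjusted p under 0.05 and in DESeq2. The 7 detoxification genes of the *cyp-35* family summed to 3.41 and 9.27 CPM in wild type against 0 and 0.724 CPM in the mutant, and 0 passed in edgeR, with 3 lower at an unadjusted p under 0.05 and 2 lower in DESeq2. The vitellogenin genes were lower in the mutant together with the *cyp-35* genes and *acdh-1*, and their part in these values was not tested.

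The log2 fold changes of the members differed by chromosome. On chromosomes I to IV together, 40 of 54 members were above 0, with a median of 0.58 beside 0.016 for all genes there. On these chromosomes 9 members rose and 0 fell in edgeR (2 lower at an unadjusted p under 0.05, 0 in DESeq2). All 6 members on chromosome III were above 0 (median 1.84, all genes 0.024), and 3 of them rose, where 6.66% of all genes of the chromosome rose and 0.384% fell. Chromosome IV had a member median of 0.40, chromosome I 0.44 and chromosome II 0.64, each with 2 members that rose, where 6.22%, 5.71% and 3.91% of all genes rose. On chromosomes IV, I and II 0.319%, 0.276% and 0.775% of all genes fell. These medians ranged from 0.23 to 0.79 on chromosome IV, 0.11 to 0.45 on chromosome I and 0.17 to 1.02 on chromosome II with 1 library left out, lowest without mutant replicate 2 on chromosomes IV and II and without mutant replicate 1 on chromosome I.

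On chromosome V, 35 of 104 members were above 0, and the median was -0.77 beside -0.37 for all its genes. There 2 members rose and 3 fell, where 1.91% of all genes of the chromosome rose and 1.32% fell. On chromosome X, 2 of 18 members were above 0, and the median was -1.56 beside -1.06 for all its genes. There 1 member rose and 1 fell, where 2.53% and 6.87% of all genes did. The median on chromosomes I to IV was 0.30 without mutant replicate 2 and 0.82 without mutant replicate 1. On chromosome V it was -1.1 and -0.38 under the same omissions, so its size depended on which mutant library was kept. The level of the members differed between these chromosomes as well, with a median in wild type of 0.585 CPM on chromosome V, 1.55 CPM on chromosome X and 1.57 CPM on chromosomes I to IV. Among members with at least 1 CPM over the 4 libraries, the median log2 fold change was 0.63 for 38 members on chromosomes I to IV, -0.43 for 37 on chromosome V and -0.62 for 10 on chromosome X. For all genes at that level it was 0.014, -0.12 and -0.76, so that on chromosome X the members lay above the other genes at this level and below them without it. These medians are descriptions, and no test of a difference between chromosomes was made.

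**Figure D4:**
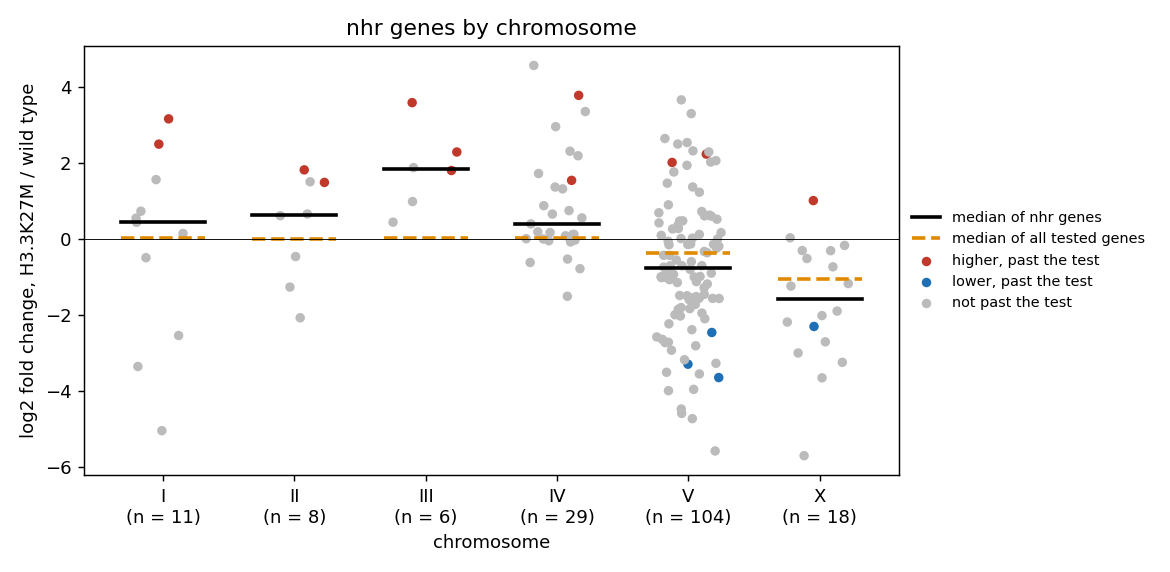
Log2 fold change (H3.3K27M over wild type) of the 176 placed *nhr* genes by chromosome, with genes that rose in red, those that fell in blue and the others in grey. Black lines are member medians and dashed orange lines the medians of all tested genes on the chromosome, and the members of chromosome III (median 1.84) and chromosome X (median -1.56) lie farthest from 0.

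The fold changes also differed with the level. The median over all 177 members was -0.30, with 77 above 0 and 100 below. For the 85 members with at least 1 CPM over the 4 libraries it was 0.02, beside -0.04 for the 9237 genes at that level. For the 92 weaker members it was -1.16, beside -0.57 for 6024 genes. The members without counts in mutant replicate 1 are among these weaker genes. Without that library the median over all members was -0.07, beside -0.07 for all genes. Without mutant replicate 2 it was -0.83, beside -0.19 for all genes, so the lower median of the members depended on which mutant library was kept.

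Many members stand in rows along the chromosomes. With gaps of at most 10 kb, 45 members formed 9 runs of at least 3 members, of which 8 were on chromosome V. In the run from 12092006 to 12109313 on chromosome V, all 7 members had a log2 fold change over 0, with a median of 2.01 and a range of 0.26 to 2.53. Of these, *nhr-207* rose, and 4 of the 7 had both mutant libraries above both wild-type libraries. *nhr-206* and *nhr-207* had the clearest separation, with values given above. The other members of the run, chosen after their values were seen, had few counts or overlapping ranges. *nhr-136* had 15 and 14 counts in wild type against 41 and 120 in the mutant, and *nhr-209* had 0 and 4 against 11 and 16. *nhr-154* had 105 and 205 counts in wild type against 202 and 241 in the mutant. *nhr-208* had 12 and 27 against 14 and 53, and *nhr-153* had 25 and 14 against 7 and 45. The log2 fold change of *nhr-208*, *nhr-154* and *nhr-153* fell below 0 with 1 library left out (to -0.65, -0.02 and -1.63), so the shared sign of the run rested on single libraries in these 3.

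**Figure D5:**
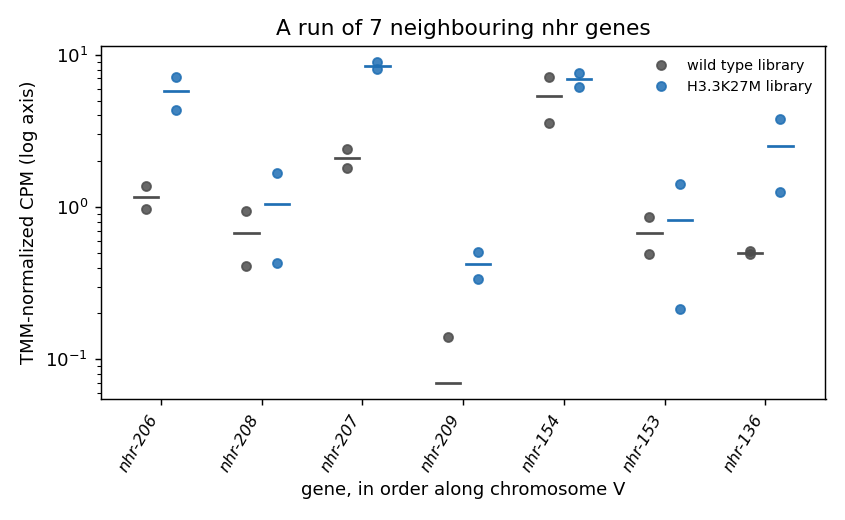
TMM-normalized CPM on a log axis for the 7 neighbouring *nhr* genes of 1 run on chromosome V, in gene order, with 2 wild-type (grey) and 2 H3.3K27M (blue) points per gene and a bar at each mean. *nhr-206*, *nhr-207*, *nhr-209* and *nhr-136* are higher in both mutant libraries, and the wild-type library of *nhr-209* with 0 counts is not drawn.

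The other runs on chromosome V varied in direction. In the run of *nhr-212*, *nhr-211* and *nhr-131* (484857 to 497297), 2 of 3 members were above 0 with both mutant libraries above wild type (median 1.37), and none passed the test. The run of 7 members from 2210510 to 2235180 on chromosome V, which begins with *nhr-133*, had 6 members below 0 (median -1.0), of which *nhr-133* fell. The next run, from 2257420 to 2296977, had 8 members, 5 of them above 0 (median 0.58), and none passed the test. In the run of *nhr-254*, *nhr-253* and *nhr-252* (392628 to 405997), all 3 members had both mutant libraries below both wild-type libraries, with log2 fold changes of -4.72 to -2.80 that rest on few counts. In the runs of 4 members on chromosome V that begin with *nhr-123*, *nhr-178* and *nhr-44*, the medians were -0.74, -0.77 and -0.80. There 2, 1 and 1 members were above 0, and none passed the test. The run on chromosome IV (1613892 to 1645298, 5 members) lay between -0.62 and 0.0087.

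The remaining 134 members, neither past the test nor named by rule, had means in wild type from 0.0345 to 21.6 CPM and log2 fold changes from -5.69 to 3.29, with 51 of them above 0. Many members arose by gene duplication, and how the counting treated reads that match more than 1 copy is not given in the sources used here. Of the 177 members, 21 are overlapped by an annotated gene on the same strand and 52 by a gene on the opposite strand. The library kit keeps strand, but the strand setting of the counting is not given in the sources used here.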

How the data were processed

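Polyadenylated RNA from dissected gonads was sequenced in 4 libraries, 2 wild type and 2 H3.3K27M. The paper describes biological replicates, gonads and 25 °C, whereas the extraction text of the labels describes embryos and larvae. According to the methods and the submitters' processing notes, the authors mapped 50-base reads from a stranded kit to WBcel235 with TopHat 2.0.13, and the notes also name HTSeq 0.6.1 and edgeR 3.10.5. The authors deposited raw counts per gene without normalization, which were used here. The deposited normalized counts, a library-scaled signal, were not used in any fit. The authors' own log2 fold changes, average log2 CPM and p-values were also left out.

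Strain was the only term in a quasi-likelihood fit (edgeR 4.0.16, R 4.3.3) with TMM normalization, over 15261 genes with at least 1 count. P-values were adjusted over all of them by Benjamini-Hochberg. Each standard error was derived from the log2 fold change and its F statistic. Levels are TMM-normalized CPM with the SD over n = 2. P-values set the strain difference against the spread between these few samples, which the fit estimates with information shared across genes. An exact permutation test of 2 against 2 could not give less than 0.333. The fit was tested on simulated data.

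Members and lists were chosen with earlier results of these data known. Named were members past the test, the 8 highest in wild type, members of the role lists that passed or reached 1 CPM in either strain, and up to 6 of the largest changes that did not pass, with strains that do not overlap and at least 1 CPM in the higher one. Alternatives were RLE normalization, DESeq2 1.42.0, filterByExpr, the legacy quasi-likelihood and classic exact tests, the adjusted p alone, a replicate block and leaving out each library.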

Additional observations from a re-analysis of the deposited data

How the results depend on the processing

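The 12 rises of *nhr* genes became 11 to 17 under RLE normalization, filterByExpr, the legacy and exact tests and DESeq2, and the 4 falls became 4 to 6. In all 5 of these fits, 10 of the 12 and all 4 of the 4 were kept. When single libraries were left out, the counts were 0 for rises and 0 for falls of *nhr* genes in edgeR, 0 to 101 for rises of all genes and 0 to 17 for falls of all genes. For all genes, DESeq2 gave 1228 rises and 522 falls and the classic exact test 1086 and 510, against 676 and 223. The cause was not tested, beyond the fewer samples of the fits without a library. The median log2 fold change of *nhr* genes was -0.037 with filterByExpr, which tests fewer of the weak genes, and -0.83 to -0.074 with each library left out. For all genes it was -0.050 with filterByExpr and -0.19 to -0.050 with each library left out.

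The deviations of same-numbered libraries of the strains had a correlation of -0.121 over 9237 genes. With 2 libraries per strain, this single value cannot show whether libraries with the same number shared a batch. With the replicate number as a block, 3 *nhr* genes rose (*nhr-47*, *nhr-10* and *nhr-69*) and 3 fell, and 372 and 91 of all genes. With the numbers crossed, a pairing chosen after seeing the data, 9 *nhr* genes rose and 3 fell, and 640 and 216 of all genes.

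The direction of 7 named genes that did not pass turned with a library left out. Their log2 fold changes then ranged from -0.77 to 0.072 for *nhr-13*, -0.66 to 0.22 for *nhr-35*, -0.20 to 0.35 for *nhr-45*, -1.27 to 0.14 for *nhr-57*, -0.17 to 3.93 for *nhr-67*, -0.027 to 0.48 for *nhr-78* and -0.30 to 0.28 for *nhr-86*. Depth limits members near 3 counts, and for the others the spread between 2 libraries limits the precision.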
